A study of Ovis aries with 8 samples.

Results

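ATP1B1 is the gene for the beta 1 subunit of the sodium pump (Na,K-ATPase), and its mRNA was measured in fetal sheep carotid arteries by 2 of the 15008 non-control probes of an ovine expression array. It is 1 of 704 genes to which a name could be given on this array. The probes were found by name: the array calls their gene LOC443384 and describes it as an ATPase beta subunit, which a RefSeq gene list of the sheep names ATP1B1. Both probes were read on all 8 arrays. The gene was chosen by its measured levels under maternal hypoxia, where all 4 hypoxia arrays lay below all 4 normoxia arrays on the brighter probe, so its values in that comparison are a description, with no test.

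The sodium pump is a plasma membrane enzyme that uses ATP to carry sodium out of the cell and potassium into it. The alpha subunit splits ATP and moves the ions. The beta subunit is a glycoprotein that folds with the alpha subunit in the endoplasmic reticulum, brings it to the cell surface, tunes its affinity for potassium and takes part in cell adhesion, while small proteins of the FXYD family, the gamma subunit among them, adjust its kinetics. In arterial smooth muscle the gradients the pump maintains set the resting membrane potential and drive sodium-calcium exchange, and so bear on vessel tone.

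Each array received Cy3-labelled RNA from the carotid arteries of 1 sheep fetus, taken at gestation day 140. The normoxia group is 4 fetuses whose mothers stayed at 300 m. The hypoxia group is 4 fetuses whose mothers lived at 3801 m between days 30 and 135 of gestation, a stay that the sample titles give as 110 days. The study asked how gene expression in the arteries of the fetus changed under this long hypoxia of the mother. Nothing beyond a number in the title tells the fetuses of a group apart, so any p-value here measures the spread between these samples, which may in part be technical. The arteries were whole tissue, in which fewer cells of a type and less RNA per cell cannot be told apart. The arrays differed in overall brightness: the 75th percentile of the processed signal was lowest on hypoxia 1, at 96.8, and highest on normoxia 3, at 1366. The software called 59.6% to 94.8% of an array's probes well above background. Levels below are therefore log2 values of the processed signal relative to each array's own 75th percentile, so that 0 is the level of that percentile and a difference of 1 is a doubling.

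ATP1B1 mRNA was lower in the hypoxia group on both probes. On the brighter probe (A_70_P039581) the log2 level was 2.64, 2.75, 3.55 and 3.18 on normoxia 1 to 4. It was 2.27, 2.17, 2.50 and 2.37 on hypoxia 1 to 4. The lowest normoxia array, normoxia 1, stood 0.14 above the highest hypoxia array, hypoxia 3, and the groups did not overlap. Over the whole array, 0.946% of the 10888 features compared (a named gene by its brightest probe, or an unnamed probe) had all hypoxia arrays below all normoxia arrays. ATP1B1 was chosen for that pattern, so nothing is read from its being among them. The group means were 3.03 ± 0.42 (SD, n = 4) in normoxia and 2.33 ± 0.14 (SD, n = 4) in hypoxia. The difference, hypoxia minus normoxia, was -0.70 on the log2 scale, a level 1.63-fold higher in normoxia. The median over all features was -0.02, and ATP1B1 ranked 780 of 10888 when features were ordered from the lowest log2 fold change.

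The dimmer probe (A_70_P039582) gave the same direction with a smaller difference. Its log2 level was 1.86, 2.14, 2.85 and 2.34 on normoxia 1 to 4. On hypoxia 1 to 4 it was 1.72, 1.66, 2.04 and 1.78. Here the groups overlapped, because hypoxia 3 lay above normoxia 1, while the other 3 hypoxia arrays lay below every normoxia array. The means were 2.30 ± 0.42 (SD, n = 4) in normoxia and 1.80 ± 0.17 (SD, n = 4) in hypoxia, a difference of -0.50, or 1.41-fold. On both probes normoxia 3 was the highest array, normoxia 4 came next and hypoxia 2 was the lowest.

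**Figure D1:**
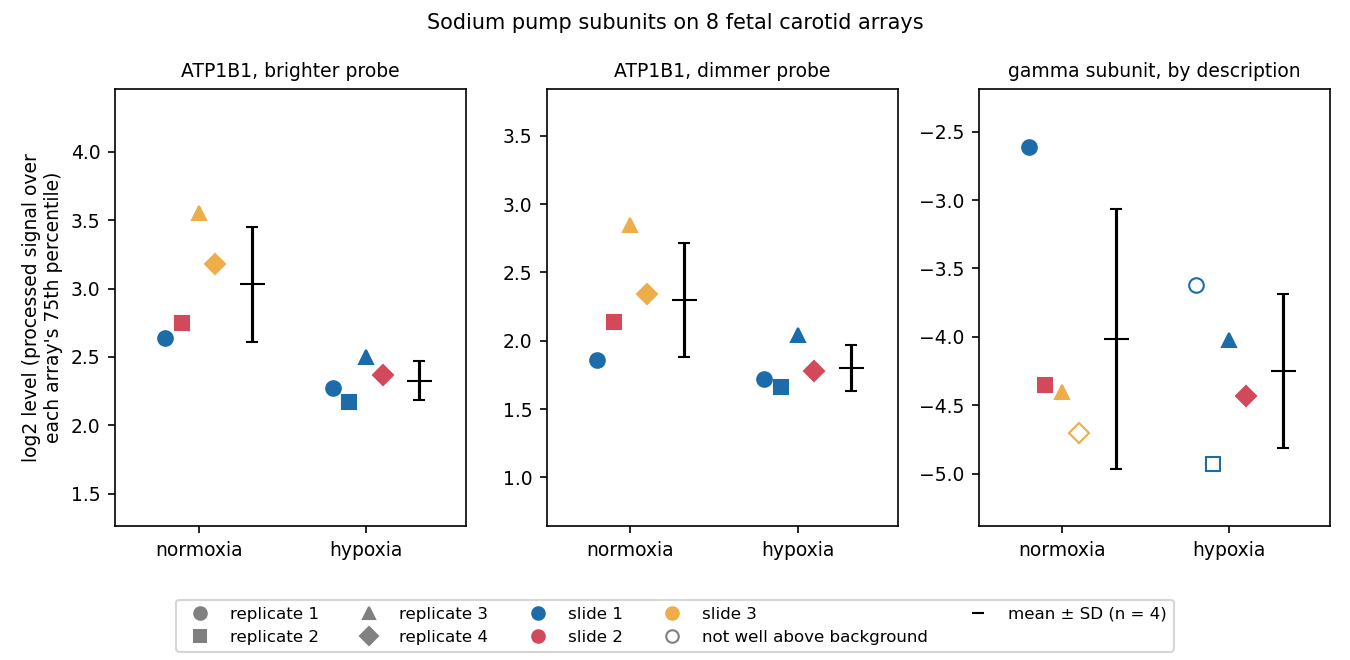
Log2 level, relative to each array's 75th percentile, of the 2 ATP1B1 probes and the brighter probe described as the gamma subunit, for the normoxia and hypoxia groups. Each point is 1 array, its shape the replicate number and its colour the slide; bars are mean ± SD (n = 4), every panel spans the same log2 range, and on the brighter ATP1B1 probe the 4 hypoxia arrays (2.17 to 2.50) sit below the 4 normoxia arrays (2.64 to 3.55).

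The probes followed each other closely over the arrays but did not change by the same amount. Their log2 difference, brighter minus dimmer, was 0.78, 0.62, 0.70 and 0.84 on normoxia 1 to 4. On hypoxia 1 to 4 it was 0.55, 0.51, 0.46 and 0.59. This within-array difference needs no scaling between arrays, and it was 0.21 smaller in hypoxia (0.53 ± 0.06, SD, n = 4) than in normoxia (0.74 ± 0.10, SD, n = 4). The lowest normoxia value, 0.62, lay just above the highest hypoxia value, 0.59. The gene was chosen for low hypoxia values on the brighter probe, which favours a smaller difference in hypoxia, so nothing is read from this separation. Which probe is nearer to the change in the transcript was not tested. The array files used here do not say where on the transcript either probe lies.

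The spots of both ATP1B1 probes were brighter than their surroundings on every array. Each was well above background on all 8 arrays, and none of its spots was saturated or marked as an outlier. The processed signal of the brighter probe was 775, 4034, 15970 and 3617 on normoxia 1 to 4. On hypoxia 1 to 4 it was 468, 1548, 6954 and 4473. Before scaling, these signals span 34.1-fold and the groups overlap; after scaling they span 2.60-fold. The spot's mean signal was between 6.45 and 170 times its local background on the brighter probe and between 4.75 and 115 times on the dimmer one. The variation between pixels within a spot was 10.9% to 14.8% on the brighter probe and 15.4% to 19.9% on the dimmer one, over 62 to 67 pixels a spot for both. Each array holds a single spot of each probe, so the arrays give no repeat of a spot.

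**Figure D2:**
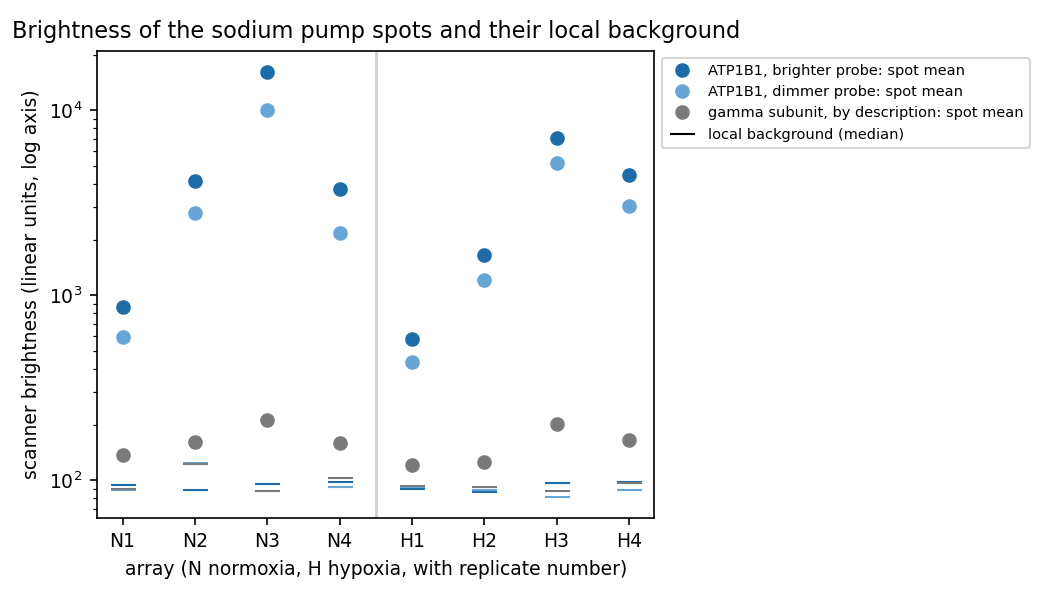
Mean scanner brightness of the ATP1B1 and gamma subunit spots (points) and the median local background beside each spot (dashes) on each array, on a log axis in linear brightness units. N and H mark normoxia and hypoxia with the replicate number; the ATP1B1 spots stand above their background on every array, from 6.45 times on hypoxia 1 to 170 times on normoxia 3 for the brighter probe.

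On a scale that uses only order within an array, the brighter probe exceeded 93.9%, 92.9%, 96.4% and 93.8% of probes on normoxia 1 to 4. It exceeded 92.3%, 90.8%, 94.0% and 91.1% of probes on hypoxia 1 to 4. By this rank the groups overlapped, since hypoxia 3 stood above normoxia 1, 2 and 4. The dimmer probe ran from 90.1% to 94.3% in normoxia and from 87.9% to 91.9% in hypoxia, which overlap as well.

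The spread of ATP1B1 within a group was narrower in hypoxia in the reported values. The SD over the 4 hypoxia arrays was 0.334 times that over the 4 normoxia arrays on the brighter probe and 0.399 times on the dimmer probe. Under another background correction (normexp) the brighter probe ran from 2.01 to 3.47 in normoxia and from 0.18 to 2.43 in hypoxia. There the hypoxia range was the wider, whereas it was the narrower under the other scalings. Over all features, 43.8% had the smaller SD in hypoxia and 3.31% had a ratio as low as the brighter ATP1B1 probe. The wide normoxia spread came from normoxia 3 and 4, at 3.55 and 3.18, against 2.64 and 2.75 on the other normoxia arrays. With 4 arrays a group these SDs are themselves imprecise, and the ratio was not tested. On the brighter probe they also come from the values by which the gene was chosen. Nothing is therefore read from how few features had a ratio as low.

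The normoxia arrays with the 2 highest ATP1B1 levels shared a slide that held no hypoxia array. According to the file headers, slide 1 carried normoxia 1 with hypoxia 1, 2 and 3, slide 2 carried normoxia 2 with hypoxia 4, and slide 3 carried normoxia 3 and 4. Within slide 1, normoxia 1 at 2.64 was above each of the 3 hypoxia arrays, and the difference on the brighter probe was -0.32. Within slide 2, normoxia 2 at 2.75 was above hypoxia 4 at 2.37, a difference of -0.38. With the slide as a block in the fit the difference was -0.35, and without the normoxia arrays of slide 3 it was -0.37, against -0.70 over all arrays. On slide 3 itself, the slide and normoxia cannot be told apart. The dimmer probe differed by -0.06 within slide 1, where hypoxia 3 exceeded normoxia 1, and by -0.18 with the slide as a block.

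Arrays of the same replicate number were also compared, although no label says that the numbers pair the arrays. By their values normoxia 2 was nearer to hypoxia 4 than to hypoxia 2 (correlations 0.801 and 0.725). The brighter ATP1B1 probe differed by -0.37, -0.58, -1.05 and -0.81 for numbers 1 to 4 (mean -0.70, SD 0.29). Since its groups do not overlap, a lower value in each pair is fixed by the choice of the gene, whatever the pairing, and nothing is read from it; 10.3% of all features were lower in all 4 pairs. The dimmer probe differed by -0.14, -0.48, -0.81 and -0.56 (mean -0.50, SD 0.28). Only number 1 has both arrays on the same slide, and it showed the smallest difference on both probes; numbers 3 and 4, with their normoxia array on slide 3, showed the largest.

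How the arrays were scaled changed the size of the ATP1B1 difference and whether the groups overlapped, not its direction. The brighter probe was lower in hypoxia under all 24 alternatives, which included the second probe and the mean of both, by -0.88 to -0.32. Its reported groups do not overlap, so blocks, array weights, filters or leaving out arrays could only give a lower value in hypoxia. Nothing is read from the direction in those runs. Scaling by the median of each array gave -0.88, quantile normalization -0.57, cyclic loess -0.55 and the authors' own deposited values -0.70. The median over all features moved as well, to -0.20 under median scaling and to -0.31 under normexp background correction. Relative to that median the difference on the brighter probe was -0.68 as reported, -0.68 under median scaling, -0.40 under normexp, -0.34 without the normoxia arrays of slide 3 and -0.25 with the slide as a block. On the dimmer probe it was -0.48 as reported, -0.17 under normexp and -0.08 with the slide as a block, close to the median of all features. All 4 hypoxia arrays lay below every normoxia array in the reported values and in the authors' values. This held for 3 of the hypoxia arrays under quantile normalization and cyclic loess, and for 2 under median scaling, normexp and an added offset of 50. Leaving out 1 array at a time gave -0.83 to -0.53 on the brighter probe. On the dimmer probe, leaving out normoxia 3 took the difference from -0.50 to -0.31.

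**Figure D3:**
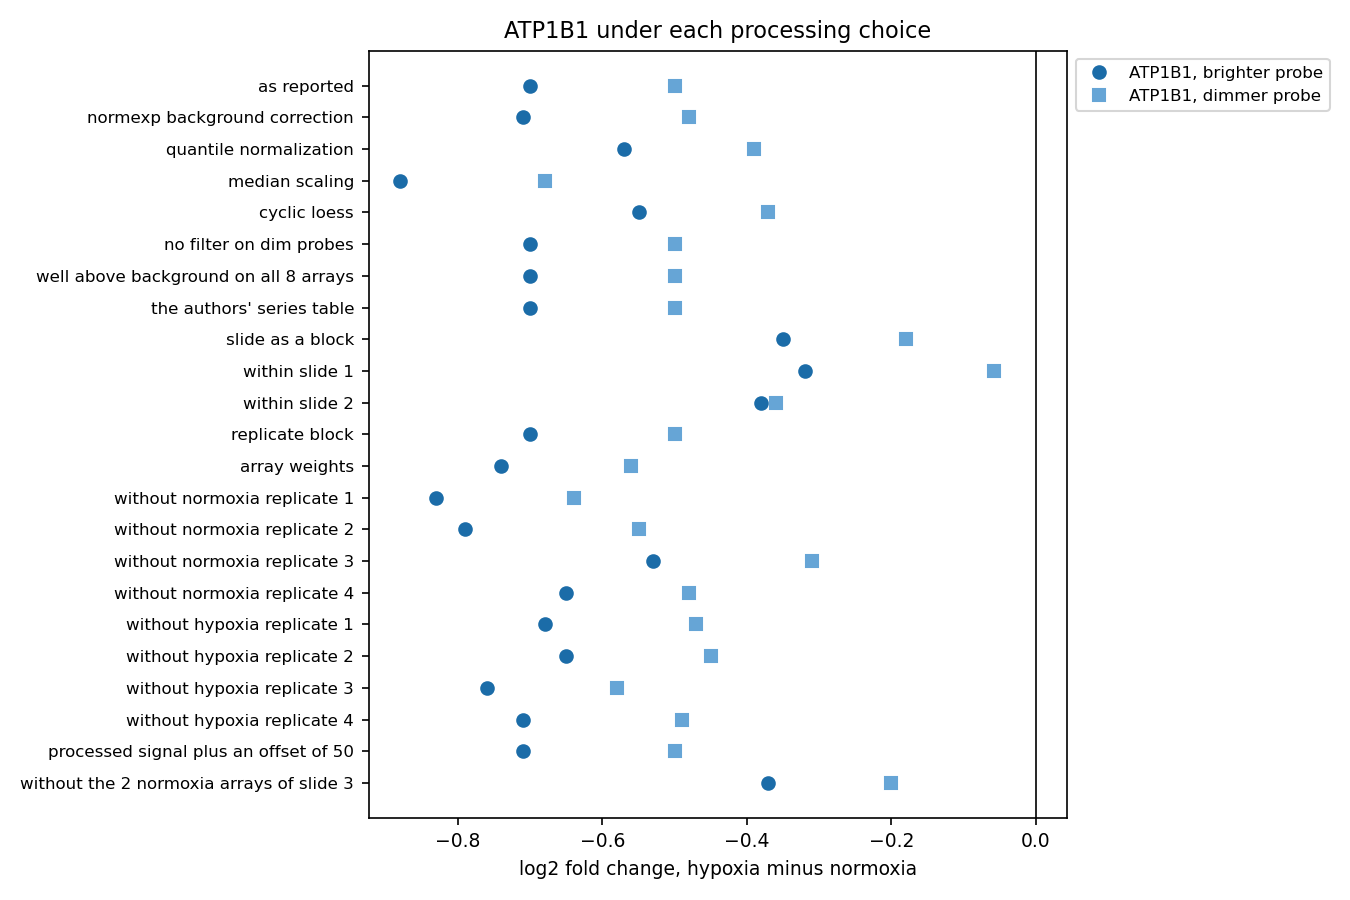
Log2 fold change, hypoxia minus normoxia, of the 2 ATP1B1 probes as reported and under each of 22 alternative ways of processing the arrays, with each point 1 value. Both probes stay below 0 throughout, nearest to it within slide 1 for the dimmer probe (-0.06). For the brighter probe the choice of the gene fixes this in runs on part of the arrays or with a block.

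Beside ATP1B1, the array describes 2 probes as the gamma subunit of the sodium pump, a small regulator of the pump. Their locus is named FXYD6 in the RefSeq list, whereas the gamma subunit is usually called FXYD2, so the identity of the gene is uncertain. Both were dim. The brighter of them rose well above background on 3 arrays of normoxia and 2 of hypoxia. It was at -2.61, -4.35, -4.40 and -4.70 on normoxia 1 to 4. On hypoxia 1 to 4 it was at -3.62, -4.93, -4.02 and -4.43. The groups overlapped throughout, and the log2 fold change was -0.24 (95% interval ± 1.19), limma adjusted p 0.997. Its second probe, measured above background on 2 normoxia and 2 hypoxia arrays, differed by -0.94. Other subunits of the pump were not analysed here.

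Over the whole array, 0 of 10888 features differed between the groups at an adjusted p under 0.05 (limma, Benjamini-Hochberg), with a smallest adjusted p of 0.997, and 402 (3.69%) had an unadjusted p under 0.05. With the replicate number as a block the latter count was 1312 and the smallest adjusted p 0.31. None of the genes named below therefore passed the test.

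Around ATP1B1 stand 6 lists of genes whose products use, regulate or resemble the pump. Among carriers and channels that use the sodium gradient, 6 of 8 measured members had a lower mean in hypoxia (median log2 fold change -0.36, against -0.02 for all features, of which 51.4% were lower). Without hypoxia 4 the count was 3 of 8, and 4 of the 6 lower members (SLC6A2 among them) were well above background on just 4 or 5 of the 8 arrays. SLC6A2, which takes up noradrenaline with sodium, was at -1.47 (SE 1.71), from a probe that cleared the background on 3 normoxia and 2 hypoxia arrays. It was at -2.56 without normoxia 2, -0.46 without hypoxia 4 and -0.43 with an offset of 50. SLC5A8, which carries monocarboxylates with sodium, was at -0.34 (SE 0.48). The list includes SLC11A1 and SLC15A1, which couple to protons rather than sodium, and NHERF1, which is neither a carrier nor a channel. SLC11A1 and SLC15A1 were the 2 members with a higher mean, at 0.12 and 0.07. NHERF1 was among the lower members, at -0.38. The count of 6 of 8 is for the list as drawn up, and nothing is read from leaving them out. In the list of hormone receptors and kinases that regulate the pump, 8 of 12 had a lower mean (median -0.23), and 5 of 12 without normoxia 3. INSR, the insulin receptor, was at -0.58 (SE 0.38), but 0.15 on its second probe. YWHAE, a 14-3-3 adapter protein, was at 0.55 (SE 0.27) and 0.54 on its second probe. Its 4 hypoxia arrays lay above all normoxia arrays, as those of 1.69% of features did. The YWHAE difference was 1.01 within slide 1, 0.092 within slide 2 and 0.35 (SE 0.66) under normexp.

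The list of potassium and calcium channels was represented by TRPC4AP, a protein that binds the TRPC4 channel, at 0.59 (SE 0.26). Its hypoxia arrays lay above all normoxia arrays, a pattern that 1.69% of all features showed. Within slide 2 its difference was 0.059, and under normexp it was 0.29. ATP7B, a copper-carrying P-type ATPase, was at -0.23 (SE 0.63), the single measured member of its list. The beta subunit is itself a glycoprotein and an adhesion molecule, and the lists of both processes were counted as well. For folding of membrane glycoproteins, 4 of 6 had a higher mean (median 0.44), with DDIT3, a stress-induced transcription factor, at -0.65 (SE 0.43) and 0.35 on its second probe, and RPN2, a subunit of the oligosaccharyltransferase that attaches N-glycans, at -0.58 (SE 0.44) and -0.66. For adhesion and junctions, 5 of 7 had a higher mean and 2 a lower one (median 0.30), but 5 were lower with the slide as a block and within slide 2, and 4 with normexp and within slide 1, so the list has no settled direction. ITGB2, the beta 2 integrin of leukocytes, was at -0.94 (SE 0.48) and -0.88 (it is also a leukocyte marker below), and CLDN4, a tight junction claudin, at 1.41 (SE 1.25) and 1.59.

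**Figure D4:**
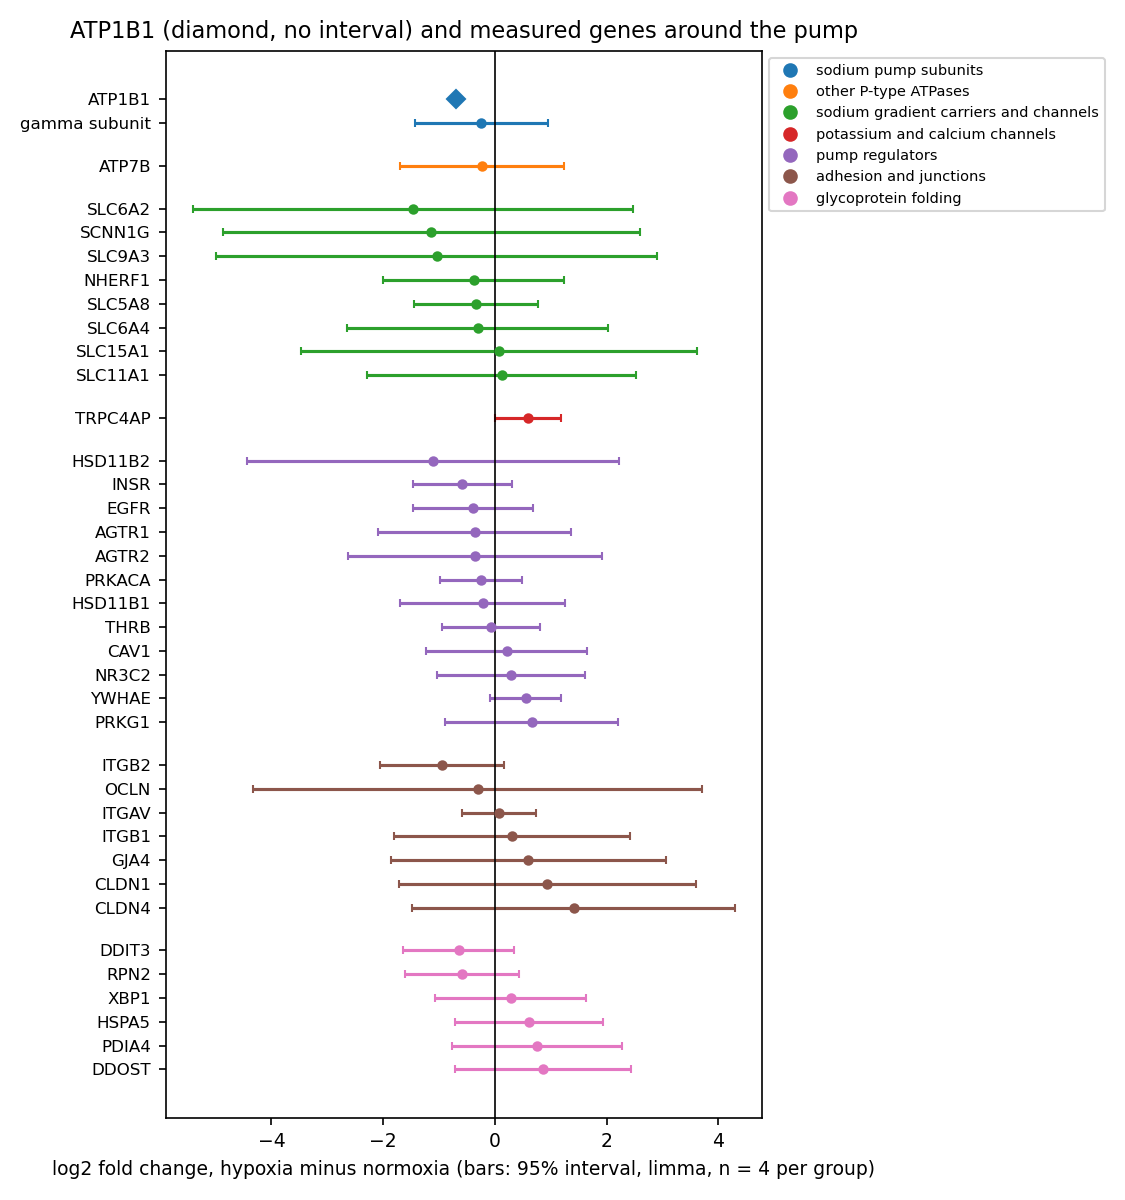
Log2 fold change, hypoxia minus normoxia, of ATP1B1 (diamond at -0.70, drawn without an interval because the gene was chosen for this comparison) and of genes of the 7 lists around the pump, by colour. Bars are 95% intervals from limma (n = 4 per group); no gene passed the adjusted test.

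To see what ATP1B1 varied with, every feature was set against it by the root mean square difference of log2 levels over the 8 arrays, after the mean of each probe was taken off. The second ATP1B1 probe was the nearest of all, at 0.12, and 0 of the 10887 other features were closer. The median distance over all features was 0.77. Among the 288 genes with more than 1 kept probe, the distance between probes of a gene had a median of 0.36, and 13.2% of genes had a closer pair than ATP1B1.

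The nearest named genes were LGMN (0.27), a lysosomal cysteine protease, CTSS (0.29), also a lysosomal protease, PCNA (0.30), the sliding clamp of DNA replication, EEF1E1 (0.30), a factor of the aminoacyl-tRNA synthetase complex, and CAST (0.31), the calpain inhibitor calpastatin. Many unnamed features lay closer to ATP1B1 than any of these genes, the nearest at 0.191. LGMN stood at 1.35, 1.83, 2.09 and 1.97 on normoxia 1 to 4 and at 0.92, 1.27, 1.62 and 1.76 on hypoxia 1 to 4. Like ATP1B1, LGMN was highest on normoxia 3 and 4, but its hypoxia 4 and 3 arrays lay above normoxia 1. CTSS was at -1.12, -0.97, 0.39 and -0.48 on normoxia 1 to 4, again highest on slide 3, and between -1.39 and -0.66 in hypoxia. The groups overlapped for each of these 5 genes, and their log2 fold changes ran from -0.46 to -0.26, smaller than that of ATP1B1. The distance was measured on the same arrays by which ATP1B1 was chosen. A near profile therefore tends to be lower in hypoxia and high on normoxia 3 and 4, and nothing is read from either. The set depended on the processing: 5 of these genes were also the nearest under median scaling, 2 under quantile normalization, 1 under normexp, and 2 without hypoxia 1. A small distance is also reached by a gene that varies little, and 977 features were closer to ATP1B1 than a flat profile would be.

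**Figure D5:**
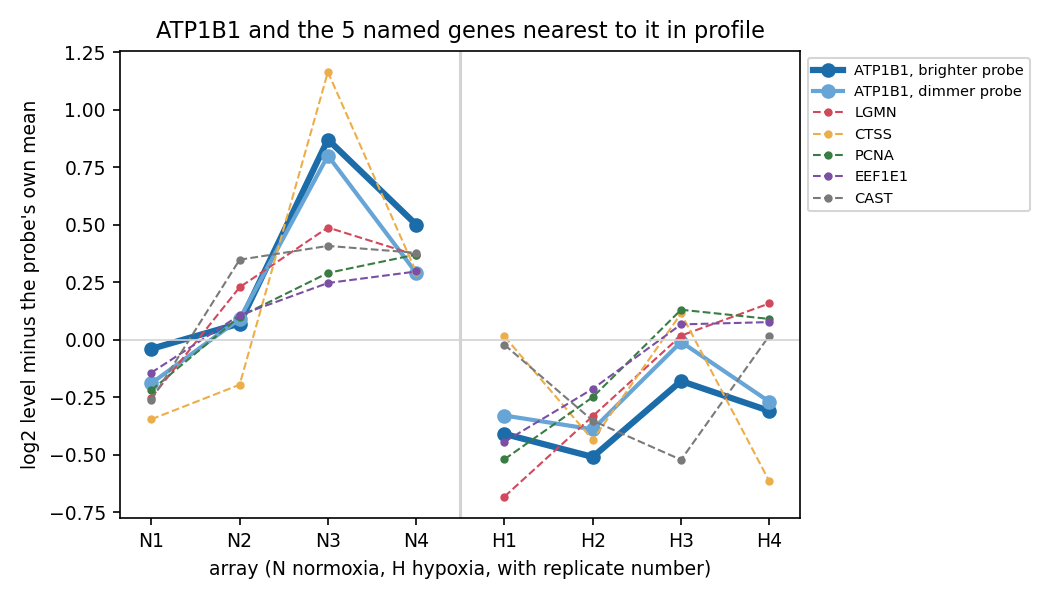
Log2 level minus the mean of each probe over the 8 arrays, for the 2 ATP1B1 probes (thick lines) and the 5 named genes nearest in profile (dashed). Lines join arrays of a group only to guide the eye, since replicates have no order. All 7 profiles are above their mean on normoxia 3 and 4, which picking near profiles favours. The ATP1B1 probes are below their mean on all 4 hypoxia arrays.

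The tissue label was checked against markers of the artery wall and of cells that could come with it. Smooth muscle markers were bright on every array, with CNN1 (calponin) at 7.92 ± 0.68, MYLK (myosin light chain kinase) at 6.0 ± 1.01 and MYL6 (a myosin light chain) at 8.46 ± 0.70 in normoxia (SD, n = 4). All 3 had lower means in hypoxia, by -0.62 (SE 0.77), -0.59 (SE 0.66) and -0.37 (SE 0.47), and their summed linear level was 421 to 1175 in normoxia and 203 to 878 in hypoxia. Of all arrays, each of the 3 was highest on normoxia 4 (summed level 1175), where ATP1B1 was second highest, while on normoxia 3, where ATP1B1 was highest, the summed level was the lowest of the normoxia arrays (421). ACTA2, MYH11 and TAGLN, further markers of this list, were not analysed here. Leukocyte markers had lower means in hypoxia for 7 of 8 (summed level 2.19 to 3.71 against 1.22 to 3.45), adipocyte markers for 5 of 5 (0.603 to 2.66 against 0.217 to 2.70) and thymus markers for 2 of 2 (0.546 to 2.16 against 0.318 to 1.53). Of all features, 51.4% had a lower mean. These counts lean on hypoxia 4, which had the lowest mean log2 level of all arrays for each list (leukocyte -4.5, adipocyte -5.02, thymus -2.66). On hypoxia 1 to 3 the adipocyte level was -1.14, -3.34 and -2.07, within the normoxia range of -3.64 to -1.1. Means were higher in hypoxia for 4 of 5 endothelial markers (0.377 to 1.62 in normoxia against 0.552 to 2.28 in hypoxia) and 3 of 4 fibroblast markers (24.7 to 73.9 against 25.4 to 180). Skeletal muscle markers were lower for 3 of 4, epithelial and kidney markers for 1 of 2, and the single erythroid marker was higher; no nerve or thyroid marker was measured. The ranges of the groups overlapped for every list, and the part of cell makeup in the ATP1B1 difference was not tested.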

How the data were processed

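RNA of 8 fetal carotid arteries (4 normoxia, 4 hypoxia, by the labels' maternal treatment) was read on single-colour Agilent arrays of 15744 spots, of which 536 were controls. The deposited spot intensity is on a linear scale, and the authors obtained it with Agilent Feature Extraction 9.5.3.1, per the file headers, which subtracted background and detrended the processed intensity without scaling between arrays. The series table deposited by the authors holds a linear ratio. Judged by its values, that ratio divides processed intensity by the 75th percentile of the array; no source used here says why the authors took this scale. Normoxia columns 1 to 4 had medians of 0.328, 0.132, 0.228 and 0.137, and hypoxia columns 0.326, 0.158, 0.308 and 0.141. Each column correlated with its own array's scanner values at 0.9948 or more.

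Control and outlier spots were left out, log2 processed intensity was centred on each array's 75th percentile, and spots were averaged per probe. Probes well above background on at least 4 arrays were kept, and the brightest stood for its gene. Names came from the files' name, accession or description through a RefSeq gene list (assembly ARS-UI_Ramb_v3.0, names only), including 93 probes matched by hand from old descriptions: 1252 of 15008 probes had a name, for 704 genes. The fit used limma 3.58.1 under R 4.3.3; p-values were adjusted by Benjamini-Hochberg over all 10888 features, and the procedure was tested on simulated data. Named genes were the pump subunits, in each list the 2 measured genes of smallest p, the 5 nearest profiles and the smooth muscle markers; some results are not reported here. ATP1B1 and all lists were chosen with earlier results of these data known.

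Over genes, arrays that share a number deviated together from the means of their groups (correlations 0.82, 0.725, 0.583 and 0.433). The reported fit did not pair the arrays, and the replicate number was a block only in an alternative. Any pairing comes from the values, not from the labels, and normoxia 2 correlated better with hypoxia 4 (0.801), which shares its slide. The first principal component of the arrays held 69.6% of the variance. It set numbers 1 and 3 apart from numbers 2 and 4 in both groups. The median ratio of an array in the series table split the same way. It was 0.228 to 0.328 for numbers 1 and 3 and 0.132 to 0.158 for numbers 2 and 4. The component thus went with how the signal was distributed over the probes of an array, and what the numbers share was not tested. Alternatives covered scaling, background, filters, slide, replicate block, array weights and leaving out arrays; an offset of 50 and the omission of slide 3 were added after the data were seen. The number of arrays limits the precision.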

Additional observations from a re-analysis of the deposited data

Results flagged for a closer look

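Of 44 groups of 4 arrays examined (22 probes of the genes named), 4 had 1 array standing far from the other 3, where chance alone gives about 1 in 20 groups; none was a group of ATP1B1. On the brighter probe described as the gamma subunit (FXYD6 by locus), normoxia 1 was at -2.61 and the other normoxia arrays lay between -4.70 and -4.35. MYLK was at 7.51 on normoxia 4, against 5.40 to 5.57 on the others. CAST was at 0.88 on normoxia 1, against 1.49 to 1.55. CLDN4 was at -4.76 on hypoxia 4, against -0.15 to 0.40.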

How the results depend on the processing

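The ATP1B1 difference was negative under every alternative run, which the choice of the gene fixed for runs on part of the arrays or with a block. It shrank from -0.70 to -0.35 with the slide as a block, -0.32 within slide 1, -0.38 within slide 2 and -0.37 without the 2 normoxia arrays of slide 3, and leaving out 1 array gave -0.83 to -0.53. The replicate block left the ATP1B1 value at -0.70 and ended or made no call, although the count of features changed by 1.5-fold or more at an unadjusted p under 0.05 went from 388 to 1125 (smallest adjusted p 0.31). That count was 23 with normexp, 134 with median scaling, 191 with the slide as a block, 1135 with array weights (smallest adjusted p 0.145), 217 with an offset of 50, 231 without the normoxia arrays of slide 3, and 171 to 602 with 1 array left out; the cause was not tested, and 0 features passed an adjusted p under 0.05 in each of these. With normexp the fitted background mean was negative on normoxia 2 (-515), normoxia 4 (-521) and hypoxia 1 (-756) and between 4.47 and 32.4 on the rest, which compresses those 3 arrays. FXYD6 was 0.0065 with an offset of 50 and ran from -0.46 to 0.23 with 1 array left out. Members lower in hypoxia among adhesion genes (2 as reported) numbered 4 with normexp, 5 with the slide as a block, 4 within slide 1, 5 within slide 2, 1 with the offset and 1 to 4 with 1 array left out; among glycoprotein folding genes (2) there was 1 within slide 2 and 2 to 3 with 1 array left out; carriers (6) had 3 to 8 and pump regulators (8) 5 to 9. Of the 5 nearest profiles, 1 was shared with normexp, 2 with quantile normalization and 2 to 5 with 1 array left out. Single genes that changed sign were ATP7B (0.27 with array weights, -0.59 to 0.27 with 1 array left out), SLC5A8 (0.20 within slide 2), CLDN4 (-0.016 with the slide as a block, -2.13 within slide 2), DDIT3 (0.10 within slide 2), CTSS (0.24 within slide 1, 0.038 without the normoxia arrays of slide 3), PCNA (0.0018 within slide 1), CNN1 (0.30 within slide 2, -1.03 to 0.15 with 1 array left out), MYLK (0.11 with the slide as a block, 0.87 within slide 2) and MYL6 (0.045 within slide 1). Dim probes, such as those of the gamma subunit, were well above background on part of the arrays, and their levels there are bounded by the background.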
